A study of Homo sapiens with 8 samples.

Results

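The 35 genes described here encode the hnRNP proteins, the SR proteins and their close partners, the RNA-binding factors that choose splice sites. They were taken by symbol from the deposited tables of IMR90 cells, a line of human fetal lung fibroblasts, and all 35 were found by Ensembl ID among 57736 IDs in each table. By family they are 17 hnRNP genes from HNRNPA0 to HNRNPUL1, SYNCRIP, the 3 polypyrimidine tract-binding genes PTBP1, PTBP2 and PTBP3, the 10 genes SRSF1 to SRSF7 and SRSF9 to SRSF11, TRA2A and TRA2B, and the 2 subunits of the U2 auxiliary factor, U2AF1 and U2AF2. The rule itself uses symbols and no measured value.

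The study asked how loss of ADAR1 bears on the senescence regulator p16INK4a, independently of RNA editing. ADAR1 (gene ADAR) edits adenosines in double-stranded RNA, and HuR (gene ELAVL1) binds and stabilises mRNAs. There were 8 libraries, 1 per group: a control (Ctrl) and an ADAR1 knockdown (KD) in an RNA-seq experiment, and, for cells carrying shControl, shADAR1 or shHuR, an anti-HuR RNA immunoprecipitate and an input each. No mock precipitate is among the groups, the hairpin sequences, the number of clones or cultures and the state of the cells (dividing or senescent) are not given in the sources used here, and no group has a replicate. Every interval below therefore covers counting error only, and a ratio between 2 libraries compares those libraries.

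SR proteins carry RNA-recognition motifs and a domain rich in arginine and serine, bind exonic enhancers and recruit the splicing machinery. Many hnRNPs act on the same transcripts as repressors, coating pre-mRNA or looping out exons, and U2AF reads the polypyrimidine tract and the AG at the 3′ splice site. The mRNAs of both families are themselves under post-transcriptional control, among others through poison exons, and HuR binds U-rich and AU-rich elements, mostly in 3′ untranslated regions and introns.

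Because an anti-HuR precipitate was sequenced, the U-rich stretches of the 3′ untranslated regions (3′ UTRs) are shown before the values. For each gene the 30-base window with the most matches to TTTNTTT was taken from 1 principal transcript in GENCODE 29 (build GRCh38, sense strand, written as DNA, overlapping matches counted). Capitals mark the bases of a match. The first 6 belong to the mRNAs most enriched in the shControl precipitate: SRSF6 (chr20:43461338-43461367, + strand), TRA2A (chr7:23505503-23505532, - strand), PTBP2 (chr1:96813653-96813682, + strand), HNRNPH1 (chr5:179614781-179614810, - strand), HNRNPL (chr19:38836599-38836628, - strand) and PTBP3 (chr9:112223693-112223722, - strand).
SRSF6: TTTTTTTTTTTTTTTTTTTTTTTTTTTTTT
TRA2A: TTTTTTTTcctcTTTTTTTTTTTTTTTTTT
PTBP2: taattttgcTTTTTTTTTTTTTTTTTTTTT
HNRNPH1: aaccTTTTTTTTTTTTTTTTTTTTTTCTTT
HNRNPL: ttccTTTTTTTTTTTTTTTTTTTTTTTTTT
PTBP3: attttaaaaatcaagggaTTTTTTTTTTTT
The next 4 belong to mRNAs enriched in the shControl precipitate but far less in the shHuR one: SRSF9 (chr12:120461900-120461929, - strand), HNRNPK (chr9:83969295-83969324, - strand), HNRNPH2 (chrX:101413934-101413963, + strand) and HNRNPA1 (chr12:54287038-54287067, + strand).
SRSF9: cttaggaaaTTTTTTTaaTTTTTTTTTTTT
HNRNPK: tgcatcTTTTTTTTTTTatctgcttctgtt
HNRNPH2: tgagtgtacacTTTTTTTTTTTTTaaggat
HNRNPA1: attccattttgtgaatgggTTTTTTTTTTT
Of the last 5, the first 4 belong to mRNAs depleted from the precipitate, and SRSF1 is shown because it was enriched with no match in its 3′ UTR: SRSF7 (chr2:38745074-38745103, - strand), SRSF5 (chr14:69771731-69771760, + strand), HNRNPM (chr19:8489042-8489071, + strand), U2AF1 (chr21:43093022-43093051, - strand) and SRSF1 (chr17:58005312-58005341, - strand).
SRSF7: ttatTTTGTTTacattattataagggattt
SRSF5: ttttataactaaagcaaatttaaTTTTTTT
HNRNPM: caaTTTTTTTTgtagttgtggcatcttgtt
U2AF1: ccaaaccagttcataaggggaaTTTTTTTT
SRSF1: ttttcattttttaattcaaactgttttgtt
Runs of T fill most of the window in the first 5 genes, PTBP3 and the second set carry shorter runs, and the depleted genes only short ones. The windows shown are a selection, and other genes of the 35 depart from this order. HNRNPC and HNRNPUL1, with log2 ratios of precipitate to input of 1.24 and 1.76 in shControl, have longest T runs of 5 and 8 bases. HNRNPDL, at -0.74, has a run of 11.

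Libraries held 28390935 to 50711218 expected counts, and the 35 genes took 0.974% to 1.01% of them in RNA-seq, 0.443% to 0.631% in inputs and 0.62% to 1.25% in precipitates. The lowest count of any of the 35 genes was 153, so all of them passed the minimum of 50 counts in every comparison. The targeted genes followed the labels: ADAR gave 7732 counts in Ctrl and 1445 in KD, and 12890 and 3142 in the shControl and shADAR1 inputs, and ELAVL1 gave 4806 and 674 in the shControl and shHuR inputs. Summed fibroblast markers lay between 2445 and 12255 CPM (counts scaled to the library total) in the 8 libraries. Summed markers of other cell types lay between 0.718 and 41.1 CPM for 5 epithelial genes, 3.7 and 88.8 for 4 endothelial genes, 0.0257 and 5.35 for 5 leukocyte genes and 0 and 0.611 for 4 muscle genes, with KRT5, CDH5, CD3E, ITGAM, MYH7 and MYOD1 at 0 in every library. TEK, with up to 3930 counts, and KRT7, with up to 1308, both in KD, were the highest of these.

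Levels can be compared between genes only per length, and FPKM, the deposited length-scaled unit, exists for the RNA-seq pair. HNRNPA1, which binds exonic silencers and shuttles between nucleus and cytoplasm, was the most abundant at 1203 FPKM in Ctrl and 1244 in KD. HNRNPH1, an hnRNP that reads G-rich runs, followed in Ctrl with 757 FPKM (613 in KD), then HNRNPK, a poly(C)-binding hnRNP, with 602 (723 in KD). HNRNPA2B1 stood at 561 and 671 FPKM and HNRNPC, the uridine-binding core hnRNP, at 546 and 516. Among SR genes SRSF11 was highest in Ctrl at 223 FPKM (169 in KD) and SRSF1 at 218 (201 in KD). The lowest were HNRNPA0, with 11.8 and 11.5 FPKM, and PTBP2, the neuronal paralog of PTBP1, with 22 and 8.04. With 1 library per group, the order of near neighbours in this ranking has no replicate check.

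In the RNA-seq pair 16 of the 35 genes lay above and 19 below their control level, and PTBP2 lay furthest from it. Its count was 1606 in Ctrl and 762 in KD, and after TMM scaling (trimmed mean of M values, over all genes) it was 2.76-fold lower in KD (log2 ratio -1.46, 95% interval -1.59 to -1.34). No gene of the 35 was 2-fold higher and PTBP2 alone was 2-fold lower, where 8.31% and 7.71% of 13235 genes were called. The median log2 ratio was -0.02 over the 35 and -0.01 over all genes. Removing trends with GC content and length left PTBP2 at -0.96, short of 2-fold. Next lowest were PTBP3, a further paralog, with 6642 counts in Ctrl and 4966 in KD (log2 ratio -0.81), and SRSF11, an SR-related protein, with 12638 and 9646 (-0.78). PTBP1, the widely expressed repressor, lay on the other side with 2941 and 5248 counts (0.45). The 3 highest were HNRNPAB, with 4738 and 9138 counts (0.56), U2AF1, the subunit that reads the AG, with 1559 and 2889 (0.50), and SRSF6 with 6162 and 11220 (0.48).

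The shADAR1 input, the other library of ADAR1 knockdown, differed more: 30 of the 35 genes lay below the shControl input, with a median of -0.43 against -0.03 over all genes, of which 51.8% lay below 0. Scaling by total counts in place of TMM moves the all-gene median by -0.11. HNRNPA1 alone passed 2-fold, with 21052 counts for shControl and 5947 for shADAR1, 2.53-fold lower (log2 ratio -1.34, interval -1.38 to -1.30). Of 13192 genes 9.14% were called higher and 10.3% lower. After HNRNPA1 came SRSF1, the founding SR protein, with 11704 and 4350 counts (-0.94) and HNRNPM with 2388 and 965 (-0.82). The 3 highest were HNRNPH2, a close paralog of HNRNPH1, with 1092 and 1206 counts (0.63), PTBP3 with 4020 and 4074 (0.51) and HNRNPK with 16221 and 13447 (0.22). PTBP2, with 590 and 244 counts, was at -0.78.

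**Figure D1:**
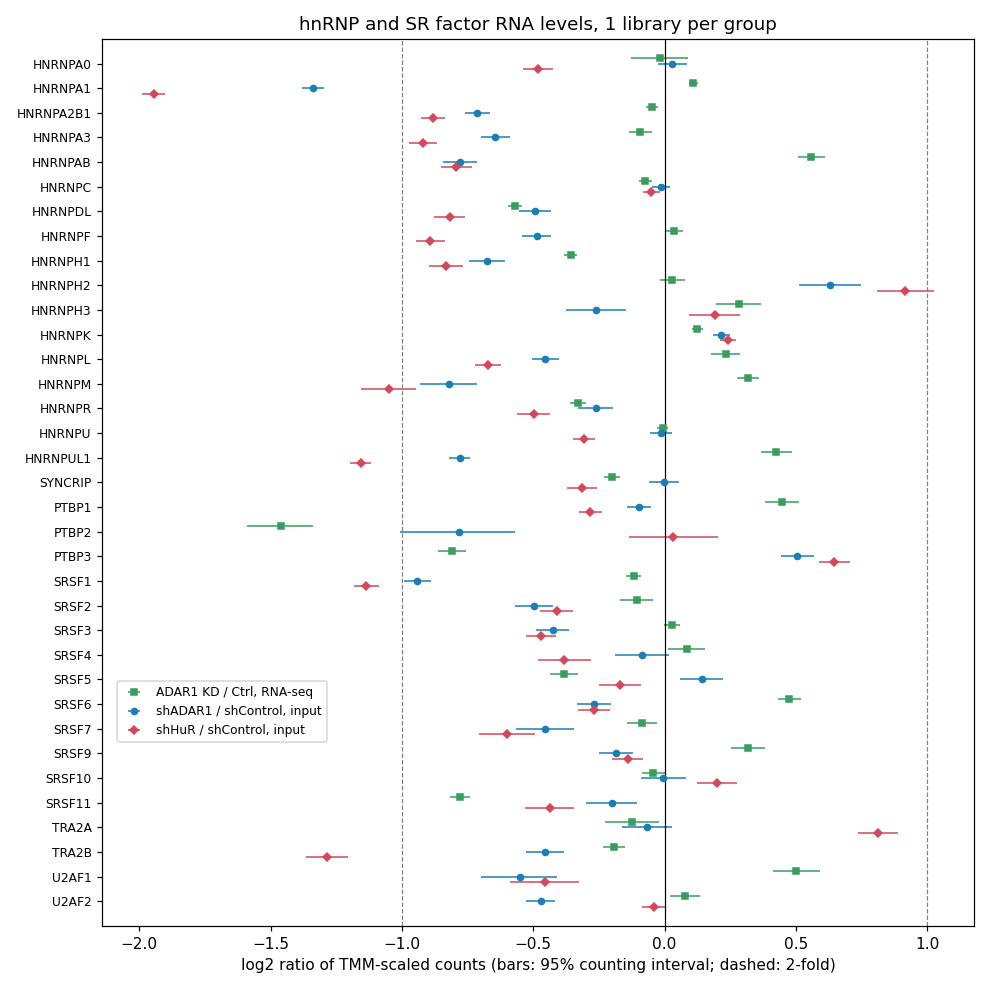
Log2 ratio of TMM-scaled counts (x axis) of the 35 genes (y axis) in ADAR1 KD against Ctrl RNA-seq (green squares), shADAR1 against shControl input (blue circles) and shHuR against shControl input (red diamonds), 1 library per group. Bars are 95% counting intervals and dashed lines mark 2-fold; PTBP2 alone passes 2-fold downwards in RNA-seq, HNRNPA1 alone in the shADAR1 input and 5 genes in the shHuR input, and no gene passes it upwards.

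The 2 ADAR1 knockdown comparisons placed 17 of the 35 genes on opposite sides of 0, where 54.5% of 12250 genes were. HNRNPAB was 0.56 in RNA-seq and -0.78 in the inputs, U2AF1 0.50 and -0.55, and PTBP3 -0.81 and 0.51, whereas PTBP2 was low in both. In a fit over both experiments (edgeR quasi-likelihood test with the experiment as a block, 1 residual degree of freedom, Benjamini-Hochberg adjustment) none of the 35 genes passed 0.05 in either direction, where 0.0813% of 15994 genes passed higher and 0.0125% lower. By unadjusted p 1 of the 35 was under 0.05 in edgeR and in DESeq2, which also called 0. In edgeR it was PTBP2, with log2 -1.13 (SE 0.44) and adjusted p = 0.913. ADAR itself, at -2.18 (SE 0.50), had an edgeR adjusted p = 0.275, so the fit missed the knockdown target too.

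In the shHuR input 28 of the 35 genes lay below the shControl input (median -0.44 against -0.03 over all genes), and 5 were 2-fold lower, 14.3% of the 35 where 15.9% of 13390 genes were lower and 12% higher. HNRNPA1 went from 21052 counts in shControl cells to 5096 in shHuR cells, 3.85-fold lower (log2 ratio -1.95, interval -1.99 to -1.90). TRA2B, a partner of SR proteins that binds GAA-rich enhancers, had 4570 and 1749 counts (-1.28), and its paralog TRA2A had 2248 and 3678 (0.81). HNRNPUL1 had 16281 and 6805 counts (-1.16), SRSF1 11704 and 4964 (-1.14) and HNRNPM 2388 and 1074 (-1.05). HNRNPH2 was the highest with 1092 and 1922 counts (0.92), TRA2A the second and PTBP3, with 4020 and 5865 (0.65), the third. None of these 3 reached 2-fold.

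Proliferation genes moved with the inputs: 10 of 15 were 2-fold lower in the shADAR1 input (median -1.13) and 15 of 15 in the shHuR input (median -3.97), against 0 of 15 in the RNA-seq pair (median 0.19). Their part in the lower levels of HNRNPA1, SRSF1 and the other genes was not tested. In these bulk samples, fewer cells of a kind and less RNA per cell cannot be told apart.

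Ratios of precipitate to input spread the 35 genes much further apart than the knockdowns did, and so they did for all genes. The quartiles of all genes were -2.01 and 1.28 for precipitate against input in shControl, and -0.45 and 0.42 in the RNA-seq pair. Without a mock precipitate, binding to HuR itself was not tested. Enrichment is the log2 ratio of precipitate to input within a line. In the shControl line it ran from -1.50 for SRSF7 to 3.86 for SRSF6, with a median of 0.84 against -0.36 over all genes. Of the 35, 15 genes (42.9%) were enriched 2-fold or more and 6 (17.1%) depleted, where 28.9% of 13309 genes were enriched and 40.3% depleted. In shADAR1 12 were enriched and 6 depleted (median 0.29 against -0.26), where 30% of 13114 genes were enriched and 37.5% depleted. In shHuR 9 were enriched and 7 depleted (median -0.32 against -0.31), where 24.8% of 13061 genes were enriched and 26.6% depleted.

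SRSF6, an SR protein, led with 46980 counts in the shControl precipitate and 5151 in its input, 31027 and 3052 in shADAR1, and 27668 and 3985 in shHuR. These gave enrichments of 14.5-fold, 11.8-fold and 16-fold, so all 3 precipitates stood far above their inputs, the shHuR one included. TRA2A had 17350 and 2248 counts in shControl, 13939 and 1532 in shADAR1 and 16087 and 3678 in shHuR, which is 12.3-fold, 10.5-fold and 10.1-fold. HNRNPL, which binds CA repeats, had 58176 and 8724 counts, 42342 and 4547, and 31280 and 5101, which is 10.6-fold, 10.8-fold and 14.2-fold. None of these 3 genes lost its enrichment in the line with the lowest ELAVL1 level.

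HNRNPH1 had 36681 and 5405 counts in shControl, 16347 and 2416 in shADAR1 and 9665 and 2829 in shHuR, with log2 enrichments of 3.43, 2.97 and 2.98. PTBP2, although its counts were few, was as enriched: 4046 and 590, 1537 and 244, and 1993 and 563 counts gave 3.44, 2.86 and 3.02. PTBP3 followed at 3.30, 2.93 and 2.72, from 24783 and 4020, 26823 and 4074, and 16762 and 5865 counts. PTBP1 went the other way with 2776 and 9412, 2800 and 6275, and 1447 and 7215 counts, at -1.09, -0.95 and -1.11. In each line, then, PTBP2 and PTBP3 stood on the enriched side and PTBP1 on the depleted side.

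The paralogs HNRNPA0, HNRNPA1, HNRNPA2B1 and HNRNPA3 also split. HNRNPA0, whose gene has a single exon, was enriched by 2.34, 2.75 and 2.80 in the shControl, shADAR1 and shHuR lines (19968 and 6286, 26629 and 4581, and 12613 and 4192 counts). HNRNPA2B1 was depleted by about the same amount in each line, at -1.19, -1.36 and -1.29. HNRNPA3 was at 0.84, 0.77 and 0.11 and HNRNPA1 at 1.11, 0.16 and -0.35. TRA2B, at -0.30, -1.03 and -1.09, was on the opposite side from TRA2A.

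**Figure D2:**
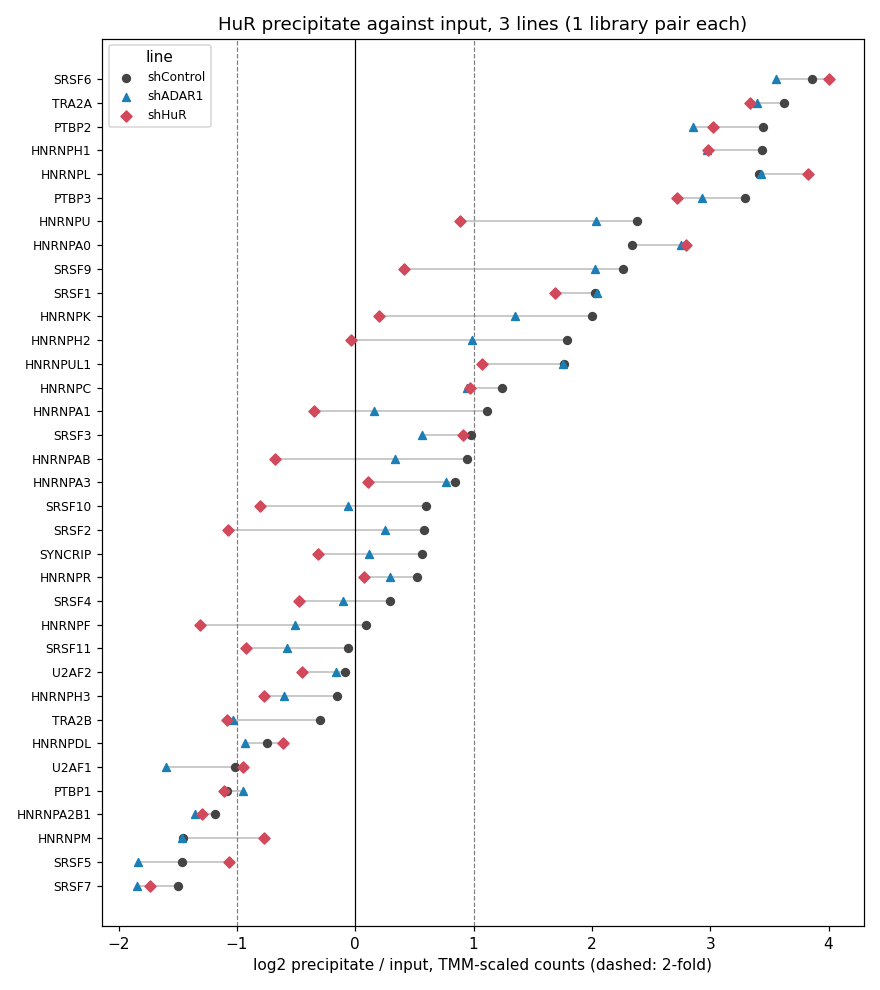
Log2 ratio of HuR precipitate to input (x axis, TMM-scaled counts) for the 35 genes (y axis, ordered by the shControl value) in the shControl (grey circles), shADAR1 (blue triangles) and shHuR (red diamonds) lines, 1 library pair each; grey bars join the lines and dashed lines mark 2-fold. The 6 genes from SRSF6 to PTBP3 stay above 2.7 in every line, while SRSF9, HNRNPK and HNRNPH2 fall from about 2 towards 0 in shHuR. HNRNPU falls less far, from 2.38 to 0.88.

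Among SR genes, SRSF1 was enriched at 2.03, 2.04 and 1.69 and SRSF9 at 2.26, 2.02 and 0.41. SRSF3, among the smallest SR proteins and an export adaptor, lay just under 2-fold in shControl (0.98) and shHuR (0.91), and lower in shADAR1 (0.56). SRSF5 was depleted at -1.47, -1.83 and -1.07 and SRSF7, a zinc-knuckle SR protein, at -1.50, -1.85 and -1.73. SRSF7 held 426, 239 and 153 precipitate counts against inputs of 1920, 1000 and 1181. SRSF4 and SRSF10 were within 2-fold of their inputs in all 3 lines. Both U2AF subunits were at or below their inputs: U2AF1 at -1.02, -1.60 and -0.95 (the shControl value turned to 0.0359 when GC and length trends were removed) and U2AF2 at -0.09, -0.16 and -0.45.

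Over the 3 lines, 9 of the 35 genes were enriched 2-fold in every line, where 20.8% of 12249 genes were: HNRNPA0, HNRNPH1, HNRNPL, HNRNPUL1, PTBP2, PTBP3, SRSF1, SRSF6 and TRA2A. Depleted in every line were 3, HNRNPA2B1, SRSF5 and SRSF7, where 21.5% of genes were. The edgeR quasi-likelihood test of precipitate against input, with the line as a block and 2 residual degrees of freedom, gave 16 of 35 genes higher and 7 lower at an adjusted p of 0.05, where 30.3% of 16232 genes were higher and 31.3% lower. No line has a replicate pair, so the test treats the 3 unlike lines, shHuR included, as replicates of 1 average effect. SRSF6 had the largest coefficient at 3.91 (SE 0.27, edgeR adjusted p = 1.02e-05), ahead of HNRNPL at 3.66 (SE 0.27, edgeR adjusted p = 1.02e-05). At the other end were SRSF7 at -1.59 (SE 0.31, edgeR adjusted p = 0.00128) and SRSF5 at -1.36 (SE 0.30, edgeR adjusted p = 0.00269). The rest of the 16 were HNRNPA0, HNRNPA3, HNRNPC, HNRNPH1, HNRNPH2, HNRNPK, HNRNPU, HNRNPUL1, PTBP2, PTBP3, SRSF1, SRSF3, SRSF9 and TRA2A, with coefficients from 0.68 to 3.55, and of the 7 HNRNPA2B1, HNRNPDL, HNRNPM, PTBP1 and U2AF1, from -1.18 to -0.66. Without the shADAR1 line, 10 genes were higher and 2, HNRNPA2B1 and SRSF7, lower. SRSF5 and SRSF9 were among those no longer called. Calls over all genes fell in that fit too, to 2831 higher and 3589 lower of 15613, from 4926 and 5087 of 16232. Without the line block 3 of the 35 were lower, where 3020 of 15342 genes were.

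The scaling sets the zero point of these ratios. With total counts the all-gene median of enrichment moves by -0.75, -0.85 and -0.94 in the shControl, shADAR1 and shHuR lines, and with DESeq2 size factors by 0.15, 0.06 and 0.07. With total counts 13 genes of the 35 were enriched and 8 depleted in shControl, 10 and 12 in shADAR1 and 7 and 18 in shHuR. The shares of all genes under total counts were not computed, and the shares given above hold for TMM scaling only. HNRNPF, HNRNPR, SYNCRIP, SRSF2, SRSF4 and SRSF10 changed sign in shControl.

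The enrichment of many of these mRNAs was smaller in the shHuR line. Against shControl, 16 of 35 genes were at least 1.5-fold less enriched in shHuR and HNRNPM alone was more enriched, where 21.7% of 13902 genes were less and 42.4% more enriched. The median difference was -0.46 for the 35 and 0.34 for all genes. The spread over all genes was narrower in shHuR, with quartiles of -1.05 and 0.99 against -2.01 and 1.28 in shControl. The 35 also started higher, with a shControl median of 0.84 against -0.36, so the 2 differences do not start from like levels. Removing GC and length trends left 12 less and 6 more enriched, and turned HNRNPH3 to 0.20 and SRSF11 to 0.14. The shares of all genes with trends removed were not computed. SRSF9 had the largest fall, with 15346 and 5102 counts in shControl against 2487 and 4313 in shHuR, a difference of -1.85 (interval -1.93 to -1.76). HNRNPH2 had 2372 and 1092 counts against 812 and 1922 (-1.82), and HNRNPK 40714 and 16221 against 8868 and 17871 (-1.80). In these 3 genes the shHuR precipitate held far fewer counts than the shControl one, while the inputs differed little or were higher in shHuR.

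SRSF2, an SR protein that acts at both purine- and pyrimidine-rich enhancers, had 4470 and 4769 counts in shControl and 686 and 3343 in shHuR (-1.65). HNRNPAB had 7904 and 6532 against 952 and 3515 (-1.62), HNRNPU, a large scaffold hnRNP, 35040 and 10694 against 6438 and 8059 (-1.50), and HNRNPA1 28520 and 21052 against 1730 and 5096 (-1.46). SRSF10 was at -1.41, HNRNPF at -1.40, SYNCRIP at -0.88 and SRSF11 at -0.86. HNRNPA3, HNRNPH3, HNRNPUL1, SRSF4 and TRA2B lay between -0.79 and -0.62. HNRNPM moved up by 0.69, from -1.46 to -0.77, and stayed below its input in both lines.

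Of the 15 genes enriched in shControl, 6 (HNRNPA1, HNRNPH2, HNRNPK, HNRNPU, HNRNPUL1 and SRSF9) were at least 1.5-fold lower in shHuR, against 38.6% of the 3850 genes enriched in shControl. The ELAVL1 mRNA was itself enriched, at 3.20 in shControl and 1.34 in shHuR. The shHuR precipitate was the smallest of the 3 at 29233961 counts.

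In the shADAR1 line the differences from shControl were smaller. Less enriched by 1.5-fold were 8 of 35 genes and none was more enriched, where 10.2% of 13782 genes were less and 25.8% more enriched. The median was -0.35 against 0.10. HNRNPA1 was lowest at -0.95 (interval -1.01 to -0.89). Its precipitate and input counts were 28520 and 21052 in shControl and 5739 and 5947 in shADAR1, so its input was lower too. The others were HNRNPH2 at -0.80, TRA2B at -0.73, SRSF10 at -0.66, HNRNPK at -0.65, HNRNPAB at -0.61, HNRNPF at -0.60 and PTBP2 at -0.59. HNRNPA0 was highest at 0.41. No gene passed 2-fold, and removing GC and length trends left 3 less and 1 more enriched, with PTBP2 turned to 0.0321. All-gene shares at these settings were not computed. Both differences share the shControl pair. In 20 of the 35 genes enrichment was highest in shControl and lowest in shHuR, an order seen in 24.1% of 12249 genes.

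**Figure D3:**
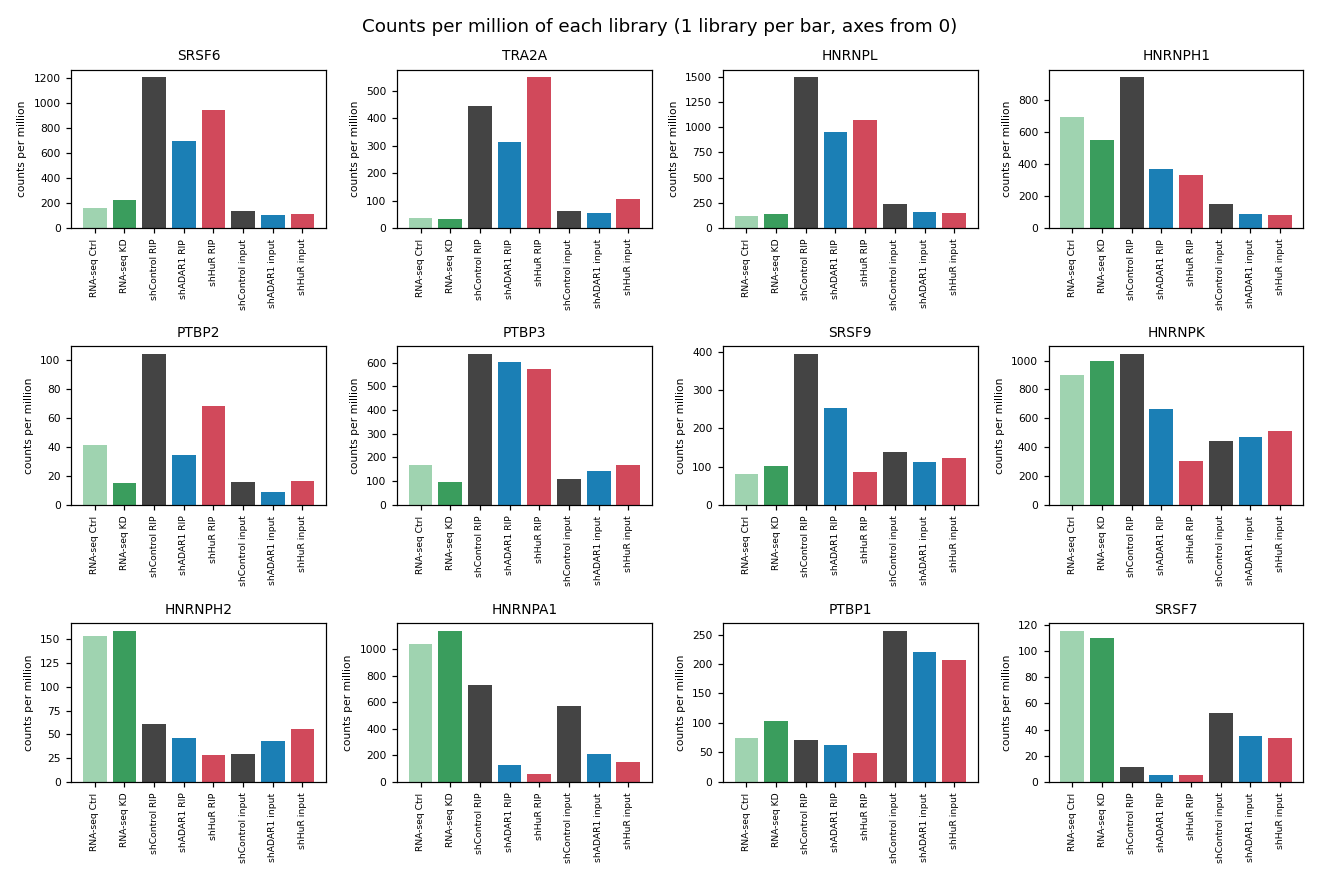
CPM by total counts (y axis, from 0, a scale of its own for each panel) of 12 genes in each of the 8 libraries (bars): RNA-seq Ctrl and KD in greens, shControl in grey, shADAR1 in blue and shHuR in red, first as precipitates (RIP) and then as inputs. In SRSF6, TRA2A and HNRNPL all 3 precipitates stand above all 3 inputs, in SRSF9, HNRNPK and HNRNPH2 the shHuR precipitate is below its input on this total-count scale, and in PTBP1 and SRSF7 all precipitates are below the inputs.

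The sequences printed at the start can be set beside these values. Matches to TTTNTTT were counted over the whole 3′ UTR of the 1 principal transcript taken per gene, and other annotated 3′ UTRs of a gene can differ. There were 44 in SRSF6, 34 in TRA2A, 33 in HNRNPA0, 27 in PTBP2, 26 in HNRNPH1 and in HNRNPL, and 17 in PTBP3. HNRNPL packed its 26 into a 3′ UTR of 334 bases. Matches overlap, so 1 long T run holds many of them and the count is not a number of separate sites. The 30-base windows printed above held 20 of the 26 in HNRNPL, 24 of the 44 in SRSF6 and 17 of the 26 in HNRNPH1. The depleted genes had 3 in SRSF7, SRSF5 and PTBP1, 2 in HNRNPM and U2AF1, and 6 in HNRNPA2B1. The 16 genes less enriched in shHuR ranged widely: HNRNPU had 20, HNRNPK, HNRNPA1 and SRSF2 13, SRSF11 12, HNRNPH2 and SRSF9 9 and HNRNPUL1 7, while HNRNPF, HNRNPH3, SYNCRIP, SRSF4 and TRA2B had 3, HNRNPA3 and HNRNPAB 2 and SRSF10 1. SRSF1, enriched at 2.03, had 0, HNRNPC, enriched at 1.24, had 2, and HNRNPDL, with 10, was at -0.74.

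The motif was in 33 of the 35 3′ UTRs and in 71.3% of 11801 measured protein-coding genes. Spearman's rho between its count and enrichment over the 35 genes was 0.62 in shControl, 0.59 in shADAR1 and 0.54 in shHuR. Over all 11801 genes it was 0.73, 0.69 and 0.57, so the relation was not particular to these families. The longest unbroken T run gave 0.65, 0.61 and 0.595 over the 35 genes and 0.68, 0.64 and 0.55 over all genes. The points share libraries. Length of the 3′ UTR gave 0.14, 0.10 and 0.01 over the 35 genes and 0.52, 0.52 and 0.45 over all genes. ATTTA, the core of AU-rich elements, was in 30 of the 35 and in 71.5% of genes, and its count gave 0.24, 0.18 and 0.09 over the 35 (0.55, 0.49 and 0.37 over all genes). Matches to ATTTA and TTTNTTT can share bases.

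The 9 genes with 14 or more TTTNTTT matches had a median enrichment of 3.41 in shControl and 2.98 in shHuR, against 1.87 and 1.53 for the 2314 genes in that range. The 8 with 7 to 13 matches had 1.44 and -0.19, against 0.82 and 0.17. Below that enrichment did not rise with the number of matches among the 35: the medians in shControl were -0.23 in the 10 with 3 to 6 matches, 0.72 in the 6 with 1 or 2 and 0.97 in the 2 with 0, against -0.23, -1.43 and -2.42 over all genes. By the longest unbroken T run, the 5 genes with runs of 20 or more (SRSF6 with 37 bases, HNRNPL with 26, HNRNPH1 with 22, PTBP2 with 21 and TRA2A with 20) differed between shHuR and shControl by a median of -0.28, and the 9 with runs of 10 to 14 by -1.50. Over all genes the medians were 0.43 in 522 genes and -0.36 in 1576. Of the 35, the 7 with runs of 0 to 6 had -0.36 and the 13 with 7 to 9 had -0.69. The 1 gene with a run of 15 to 19 had 0.46. All genes in those ranges had 0.97, -0.34 and 0.19, so the difference did not change steadily with run length. A match is a run of letters in an annotated 3′ UTR and was not tested as a binding site.

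**Figure D4:**
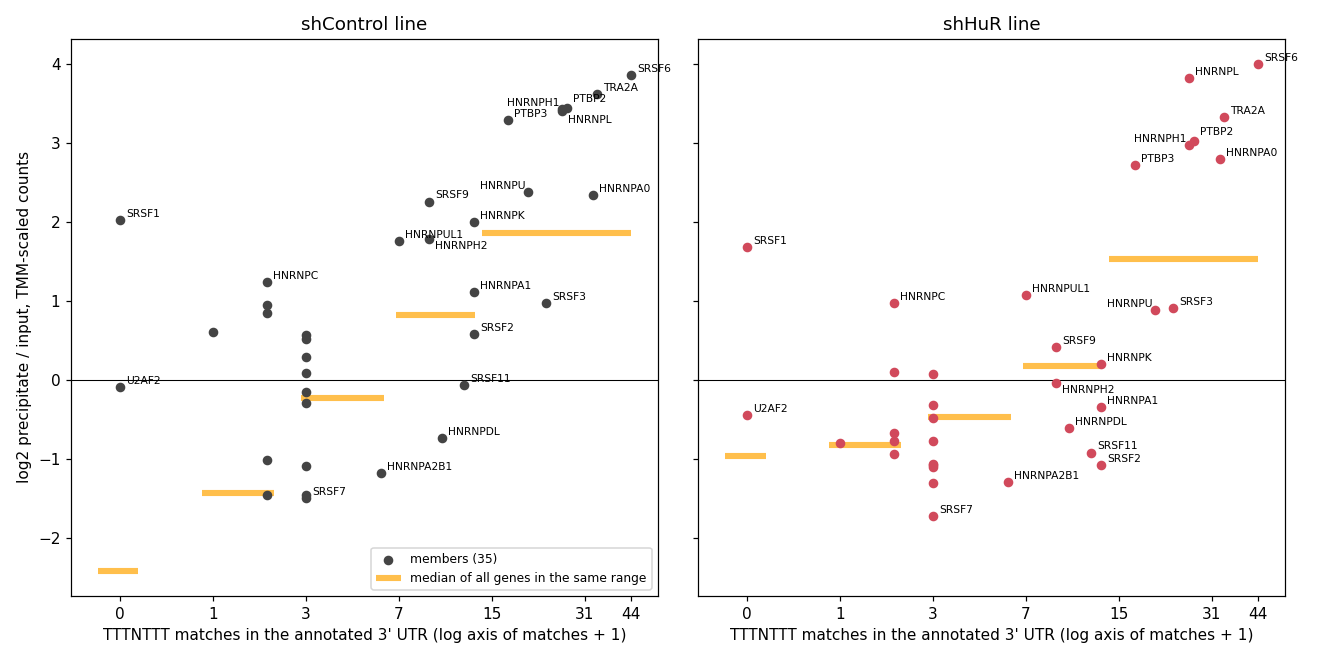
Log2 precipitate to input ratio (y axis, TMM-scaled counts) against the number of TTTNTTT matches in the annotated 3′ UTR (x axis, log scale of matches + 1) for the 35 genes (points) in the shControl (left) and shHuR (right) lines; orange bars are medians of all measured protein-coding genes in the same range of matches. Names are given to genes with 6 or more matches and 4 others. SRSF6, TRA2A and HNRNPL stay at the top right in both lines, and HNRNPK, HNRNPH2 and SRSF9 drop to near 0 in shHuR.

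Other genes of the splicing machinery give the setting. Of 29 core snRNP and SF3 proteins, the constitutive parts of the spliceosome, 4 were enriched in the shControl precipitate and 19 depleted (median -1.91), and in the edgeR precipitate test 4 were higher and 21 lower at an adjusted p of 0.05. Of 28 other splicing regulators, such as MBNL, CELF and TIA proteins, 13 were enriched and 3 depleted (median 0.90), and 14 were higher and 5 lower by edgeR. Of 8 SR protein kinases 2 were enriched and 2 depleted (median 0.25). Of 9 measured hnRNP and SR relatives outside the 35, 2 were enriched and 1 depleted (median 0.65). The 3 import receptors of these proteins had a median of 1.29, with 2 enriched. In the RNA-seq pair 2 of 29 core proteins were 2-fold higher, and 2 of 28 other regulators and 1 of 10 relatives 2-fold lower. None of the 8 SR protein kinases passed 2-fold, but 7 lay below 0, with a median of -0.54.

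The counts of some genes are less certain, because exons of other annotated genes overlap those of 17 of the 35 in GENCODE 29 and the strand setting of the counting is not given in the sources used here. The share of exon bases that overlap was 10% or more in 5 genes: 60.7% in SRSF1, 46.2% in SRSF9 (with GATC), 36.7% in SRSF2 (with MFSD11), 16.3% in HNRNPH2 (with a readthrough gene) and 15.6% in HNRNPU (with COX20). Smaller overlaps can also matter where the neighbour is abundant: RUFY2 reached 821% of the HNRNPH3 count in a library, CBX3 222% of HNRNPA2B1 and TGFB1 43.5% of HNRNPUL1, with 2.14%, 3.97% and 3.29% of exon bases shared. Pseudogene copies held at most 3.64% of the count of any member, in HNRNPA1, which has 74 pseudogene IDs, and adding them changed no count of calls.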

How the data were processed

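Gene-level counts of 8 libraries were used as the authors deposited them: expected counts from RSEM 1.2.3 against hg19, per the submitters' processing notes, which also name DESeq2 for the RNA-seq pair. The counts were whole numbers as deposited, and were passed on unrounded. The authors also deposited FPKM for the RNA-seq pair, which served for levels between genes and as an alternative. The aligner, annotation release and strand setting are not given in the sources used here. The Ensembl IDs were named from a gene table (39501 of 57736 matched). The 35 genes and the other gene lists were chosen with earlier results of these data known. All 35 are accounted for, genes past a threshold are named, and where fewer than 6 passed, the 3 highest and 3 lowest are named too.

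Ratios used TMM scaling within each pair over all genes, a prior count of 2, and exact conditional binomial intervals at 95%, which cover counting error only, since reads are not independent molecules. A gene was called at 2-fold with 50 or more counts in 1 library, and differences of enrichment at 1.5-fold (normal intervals from the 4 counts). Tests were edgeR 4.0.16 quasi-likelihood fits (R 4.3.3) over all genes, adjusted by Benjamini-Hochberg at 0.05, and DESeq2 1.42.0 was an alternative. GC and length trends were removed as an alternative, with values for 90.6% of genes. Nothing states that samples came from separate cultures, so the spread behind a p-value may be technical. The 3′ UTRs came from GENCODE 29 on GRCh38, another build than that of the counts, so gene coordinates in hg19 are not given.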

Additional observations from a re-analysis of the deposited data

Results flagged for a closer look

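In 6 cases the same gene moved by 0.5 or more on the log2 scale in opposite directions in comparisons of the same kind. The share of all genes that meet this rule was not computed. With 1 library per group none of these differences was tested. For ADAR1 knockdown, RNA-seq minus input gave 1.34 for HNRNPAB (0.56 and -0.78), -1.31 for PTBP3 (-0.81 and 0.51) and 1.05 for U2AF1 (0.50 and -0.55). For precipitate against input, shHuR minus shControl gave -1.65 for SRSF2 (-1.08 and 0.58), -1.62 for HNRNPAB (-0.68 and 0.95) and -1.41 for SRSF10 (-0.81 and 0.60). SRSF2 shares 36.7% of its exon bases with neighbouring genes. The shControl values of SRSF2 and SRSF10 changed sign when libraries were scaled by total counts, to -0.18 and -0.16.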

How the results depend on the processing

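Under the alternatives, 114 recomputed counts of called genes stayed within 1.5 times the main count, 13 grew beyond it and 9 shrank. At 1.5-fold, genes lower rose to 3 in RNA-seq, 9 in the shADAR1 input (1 higher), 13 in the shHuR input (3 higher) and 14 in the shHuR precipitate. The lower quartile of log2 ratios over all genes was -0.45 in RNA-seq, -0.49 in the shADAR1 input and -0.64 in the shHuR input. At 2-fold, differences of enrichment left 0 lower in shADAR1, and 0 higher and 9 lower in shHuR. With total counts, 2 genes were lower in the shADAR1 input, 12 and 18 were depleted in the shADAR1 and shHuR lines, and 0 were more enriched in shHuR than in shControl. With GC and length trends removed, 0 were lower in RNA-seq, 2 in the shADAR1 input and 9 in the shHuR input, enrichment differences were 1 higher and 3 lower in shADAR1 and 6 higher in shHuR, and 4 values turned: U2AF1 enrichment in shControl to 0.0359, PTBP2 in shADAR1 minus shControl to 0.0321, and HNRNPH3 and SRSF11 in shHuR minus shControl to 0.20 and 0.14. The shares of all genes called at these alternative settings were not computed, so the counts here have no background beside them. The cause of these changes was not tested.

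In the edgeR precipitate test, leaving out 1 line at a time gave 10 to 18 genes higher and 2 to 7 lower, the fewest without the shADAR1 line and the most higher without the shHuR line. Over all genes these fits called 2831 to 5383 higher and 3589 to 5863 lower. Those were also fewest without the shADAR1 line and most without the shHuR line. Without the line block 3 of the 35 were lower, where 3020 of 15342 genes were. Over all genes the knockdown test called 13 higher and 2 lower in edgeR and 93 and 27 in DESeq2. Using the longest annotated 3′ UTR of any transcript, an alternative chosen after seeing the data, rho was 0.65 in shControl. Depth did not limit these genes, but the lack of replicates limits every ratio.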

Other observations

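The RNA-seq table gives counts and FPKM side by side, so the ratio of the 2 shows the effective length that the authors' quantification assigned to each gene in each library. These values were computed after seeing the data. Relative to the median of 11978 genes, the length of HNRNPA3 in KD was 70.3% of that in Ctrl, of SRSF11 76.8%, of SRSF10 78.2%, of HNRNPA2B1 80.5%, of TRA2B 82.2% and of SRSF3 83.7%. These are 6 of 35 genes at or below -0.25 on the log2 scale, where 10.9% of all genes were. SRSF4 was the only one of the 35 at 0.25 or above, at 132%, where 6.47% of all genes were. The middle of all genes lay between -0.10 and 0.07 (quartiles), and the median of the 35 was -0.04.

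For HNRNPA3 the 2 units therefore gave opposite signs: its counts were 7171 in Ctrl and 8811 in KD (log2 ratio -0.09 after TMM scaling), while its FPKM were 64 and 85. HNRNPA2B1 likewise had a log2 ratio of -0.05 from counts, and 561 and 671 FPKM. SRSF4 was at 0.08 from counts, while its FPKM were 62.5 and 49.9. Many of these genes have annotated isoforms of different length, and which isoforms were used is not analysed here.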
